A study of Oryza sativa with 6 samples.

Results

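The leucine-rich repeat (LRR) receptor-like kinases were examined in leaves of WYG7 and of a promoter-edited line. They were found by their Swiss-Prot description, which had to contain LRR receptor, leucine-rich repeat receptor, Xa21, a receptor-like protein kinase HSL name, BRASSINOSTEROID INSENSITIVE or somatic embryogenesis receptor kinase. This gave 38 of the 2995 genes of the deposited table. Of these, 18 matched LRR receptor, 9 leucine-rich repeat receptor and 11 Xa21, and 0 matched the other phrases.

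RNA-seq was done on 3 leaf libraries of WYG7, the cultivar Wuyungeng 7, and 3 of the line that the labels call PIF4v3m. It was taken to be the study's PIL13v3m, a line edited in the WYG7 background that lacks a base of the OsPIL13 promoter and has less OsPIL13 transcript. Pot-grown plants of both lines had been kept under the combination of changing light and drought (FL-DS), so the stress is shared, and no unstressed library was compared here. The labels give plants 3 weeks old, an age that conflicts with the study's methods, and 1 edited line was sequenced. The study calls its replicates independent, but the labels do not say whether libraries of a line came from separate plants, so the p-values measure the spread between these libraries, which may be technical. No collection time is recorded, so genotype and time of day cannot be told apart for any difference given here. In whole leaves, fewer cells of a type and less RNA per cell cannot be told apart either.

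An LRR receptor-like kinase reads a signal outside the cell with its repeats and passes it on through a kinase domain inside. Binding of a ligand, often a peptide or a microbial fragment, usually brings the receptor together with a co-receptor of the SERK family such as BAK1, while BIR proteins hold BAK1 apart from receptors in the absence of a ligand. SOBIR1 serves as the kinase partner of many receptor-like proteins, which have repeats but no kinase. Below the receptors, receptor-like cytoplasmic kinases activate respiratory burst oxidases (RBOH), which make reactive oxygen species, and MAP kinase cascades. In rice leaves the family is best known for XA21, which gives resistance to the bacterial blight pathogen.

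The family label was checked against the other annotation columns. A kinase term was listed for 34 of the 38 genes. The other 4 (the EFR-named LOC4329947, the BIR2-named LOC4324918, the At5g48380-named LOC4324921 and Oryza_sativa_newGene_2996) had no kinase term or domain, and all 4 were lower in PIF4v3m. The table lists 1 Pfam domain per gene, which was an LRR domain in 19, a kinase domain in 18 and a malectin-like domain in 1. For the BAK1-named LOC4350584 only a general kinase activity term and an LRR domain were listed. The best match was an Arabidopsis protein for 25 genes and a rice protein for 13. The 11 Xa21-named genes are all among the latter and lie on several chromosomes. Names below are therefore those of the best match, and need not identify the rice gene itself, also where the match is a rice protein.

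Values are FPKM, fragments scaled by transcript length and by the mapped fragments of the library, which can be compared between genes. Fold changes and adjusted p-values are from limma on log2(FPKM + 1), PIF4v3m against WYG7, with Benjamini-Hochberg adjustment over all 2995 genes. Means are given ± SD with n = 3 libraries. The table lists only genes that the authors had already called higher or lower, so the p-values below add no independent support for a change, and the family's counts have to be read against those of all listed genes. The study reports more changed genes in total than the table lists, so a gene absent from the table may still have been called. Library depth is not given by the FPKM. The study lists read totals per library, but fragments per gene were not derived from them here. The precision of a single low value was therefore not estimated.

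In PIF4v3m, 24 of the 38 receptor kinases were lower and 14 were higher than in WYG7 (limma, threshold 0.05 for the adjusted p), and 0 missed the test. Of all listed genes 99.9% passed, 54.1% as lower and 45.8% as higher. The share of lower genes in the family was 63.2%, and whether it differs from that of other listed genes was not tested. The median log2 fold change was −0.45 in the family and −0.56 over all listed genes, an order that depended on the added 1 FPKM, since with 0.1 FPKM added the medians were −1.23 and −1.08. The FPKM of the 3 WYG7 and 3 PIF4v3m libraries did not overlap in any of the 38, a property of 99.4% of all listed genes. The exact two-sided permutation test of each single gene gave p = 0.1, the smallest that 3 against 3 libraries allow. Under quantile normalization, 5 of the lower genes missed the limma threshold while keeping their direction (LOC4340343, LOC9272400, LOC4329980, LOC4328724 and LOC107276401), all of them with a mean under 1 FPKM in WYG7.

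Of the 5 genes with the highest mean over all libraries, 4 were lower in PIF4v3m and 1, LOC9271323, was higher. The median level of the lower genes in WYG7 was 3.69 FPKM, against 0.731 FPKM in PIF4v3m. Summed over the 24 lower genes, the WYG7 libraries held 268, 166 and 204 FPKM and the PIF4v3m libraries 65.5, 64.7 and 62.0 FPKM. The 14 higher genes had a median of 0.367 FPKM in WYG7 and 1.27 FPKM in PIF4v3m, and their sums were 12.7, 13.5 and 14.7 FPKM against 39.1, 36.8 and 43.3 FPKM. In every library the lower genes summed to more FPKM than the higher genes, and 14 of the 38 had a mean under 1 FPKM in both lines.

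With log2(FPKM + 1) as the scale, 13 genes fell and 1 rose by more than 2-fold, where 33.9% and 26.6% of all listed genes did. The added 1 FPKM shrinks the change of low genes, and the higher genes had the lower median in WYG7, though not in PIF4v3m. As a plain ratio of mean FPKM, 24 of 24 lower genes and 13 of 14 higher genes differed by more than 2-fold, with medians of 3.27-fold and 3.11-fold. With 0.1 FPKM added in place of 1 FPKM, the counts past 2-fold were 23 lower and 13 higher, and with 1 FPKM added but quantile normalization 4 were higher. The difference in size between the directions therefore depended on the added value. Neither the plain ratios nor the counts with another added value or scaling are set against all listed genes here. Every listed gene had already been called by the authors, so these ratios and counts cannot be read as a trait of the family.

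**Figure D1:**
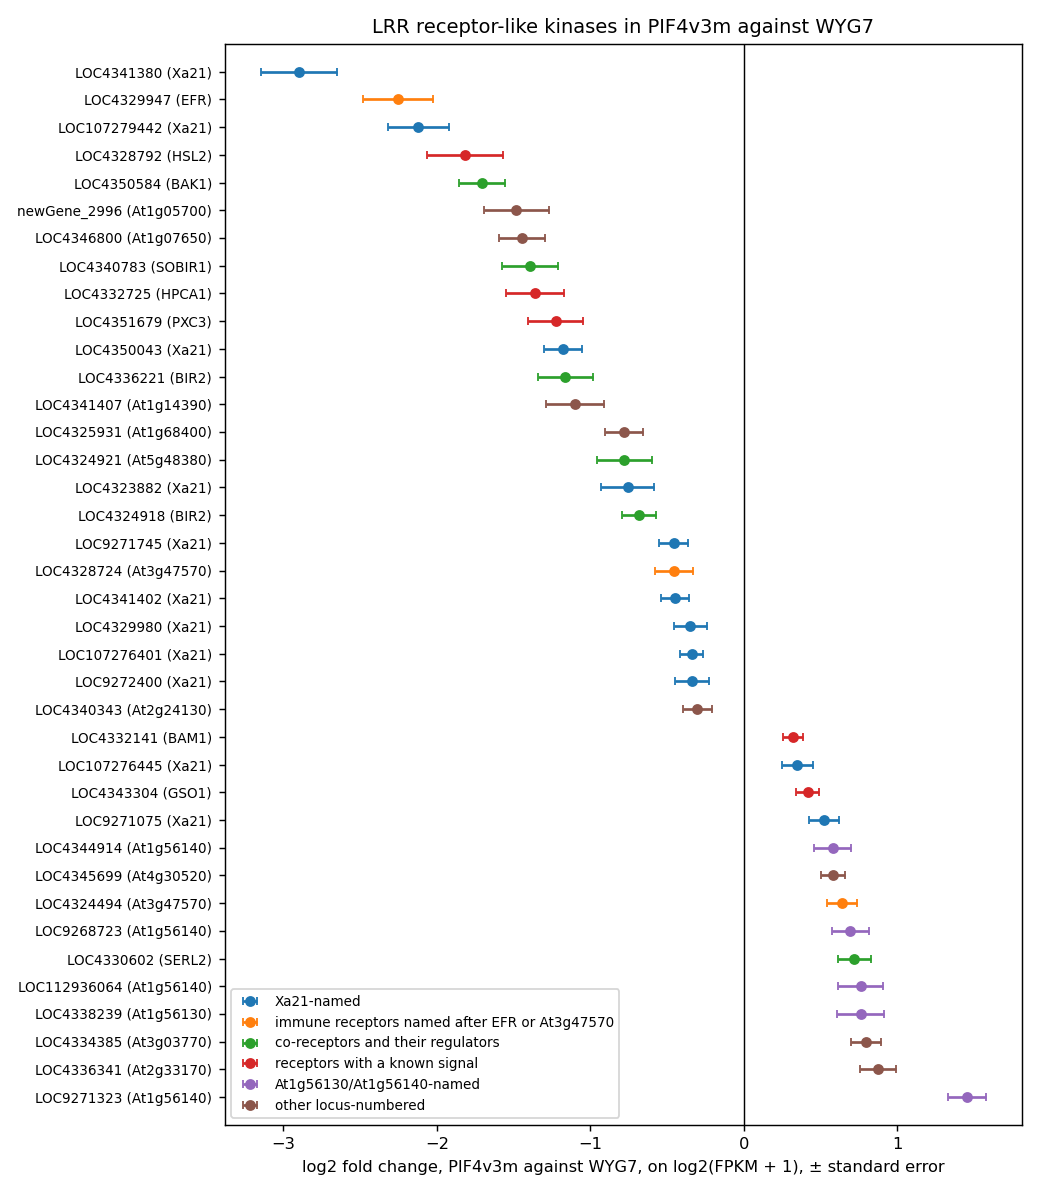
Log2 fold change of the 38 LRR receptor-like kinases on log2(FPKM + 1), PIF4v3m against WYG7, with points for the limma estimate, bars for ± 1 standard error and colours for the role. The 24 lower genes reach −2.90 and the 14 higher genes reach 1.45.

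Of the 11 genes named after XA21, 9 fell and 2 rose. The gene with the largest decrease of the family was among them, LOC4341380. It had 46.8, 21.8 and 33.1 FPKM in the WYG7 libraries and 2.92, 4.15 and 3.45 FPKM in the PIF4v3m libraries. Every WYG7 library was several times above the highest PIF4v3m library, although the WYG7 libraries themselves were spread widely. The mean fell from 33.9 ± 12.5 to 3.51 ± 0.618 FPKM, with a log2 fold change of −2.90 (standard error 0.25, adjusted p = 1.42e-05).

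LOC4350043 was the other abundant Xa21-named gene, with 37.6, 34.7 and 41.3 FPKM in WYG7 and 18.2, 16.7 and 13.8 FPKM in PIF4v3m. Here the libraries of a line lay close together and the lines stood well apart (log2 fold change −1.18, standard error 0.12, adjusted p = 3.46e-05). LOC107279442, which the table calls LRK2, had 5.57, 3.11 and 2.86 FPKM in WYG7 and 0.0367, 0.0698 and 0.142 FPKM in PIF4v3m. It was close to 0 in all 3 libraries of the edited line, and its log2 fold change was −2.12 (standard error 0.20, adjusted p = 2.16e-05).

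The other Xa21-named genes were low. LOC4323882 had a mean of 1.50 ± 0.520 FPKM in WYG7 and 0.469 ± 0.218 FPKM in PIF4v3m, and the 5 further lower genes had WYG7 means of 0.411 to 0.659 FPKM and log2 fold changes of −0.46 to −0.34. The 2 that rose were LOC9271075, from 0.105 ± 0.00510 to 0.592 ± 0.188 FPKM, and LOC107276445, from 0.212 ± 0.0509 to 0.549 ± 0.185 FPKM. None of these low genes came near the level of LOC4341380 or LOC4350043 in either line.

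EFR is the Arabidopsis receptor for a fragment of bacterial elongation factor Tu. The EFR-named LOC4329947 had 8.53, 4.19 and 6.47 FPKM in WYG7 and 0.492, 0.322 and 0.730 FPKM in PIF4v3m. All PIF4v3m libraries were under 1 FPKM and all WYG7 libraries above 4 FPKM. Its log2 fold change was −2.25 (standard error 0.23, adjusted p = 3.01e-05). Of the 2 genes named after At3g47570, LOC4328724 fell from 0.949 ± 0.298 to 0.413 ± 0.0732 FPKM and LOC4324494 rose from 0.467 ± 0.0871 to 1.28 ± 0.129 FPKM.

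Co-receptors and their regulators made up 6 genes, of which 5 fell and 1 rose. The BAK1-named LOC4350584 had 5.27, 4.72 and 6.03 FPKM in WYG7 and 0.762, 1.25 and 0.827 FPKM in PIF4v3m. The WYG7 libraries lay close together and far above those of PIF4v3m (log2 fold change −1.71, standard error 0.15, adjusted p = 1.61e-05). SOBIR1-named LOC4340783 was the most abundant of the group in WYG7, though not in PIF4v3m. It had 33.9, 20.3 and 21.5 FPKM in WYG7 and 9.03, 8.54 and 8.65 FPKM in PIF4v3m. The first WYG7 library was the highest and the edited line was nearly the same in all its libraries (log2 fold change −1.39, standard error 0.18, adjusted p = 0.000115).

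Both genes named after BIR2, which binds BAK1 in Arabidopsis, fell as well. LOC4336221 had 30.2, 17.9 and 21.4 FPKM in WYG7 and 9.23, 8.93 and 10.6 FPKM in PIF4v3m. The lines did not overlap, and the first WYG7 library was again the highest (log2 fold change −1.16, standard error 0.18, adjusted p = 0.000296). LOC4324918 was much lower in level, at 0.901 ± 0.252 FPKM in WYG7 and 0.178 ± 0.0745 FPKM in PIF4v3m. LOC4324921, whose match At5g48380 is BIR1 in Arabidopsis, fell from 2.95 ± 0.755 to 1.29 ± 0.332 FPKM.

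The gene of this group that rose was LOC4330602, named after rice SERL2, a relative of the SERK co-receptors. It had 0.452, 0.713 and 0.645 FPKM in WYG7 and 1.52, 1.67 and 1.71 FPKM in PIF4v3m. All PIF4v3m libraries were higher (log2 fold change 0.72, standard error 0.11, adjusted p = 0.000253). In every PIF4v3m library its level was below that of the SOBIR1-named gene and the larger BIR2-named gene. It was above the BAK1-named LOC4350584 in every PIF4v3m library and below it in every WYG7 library.

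**Figure D2:**
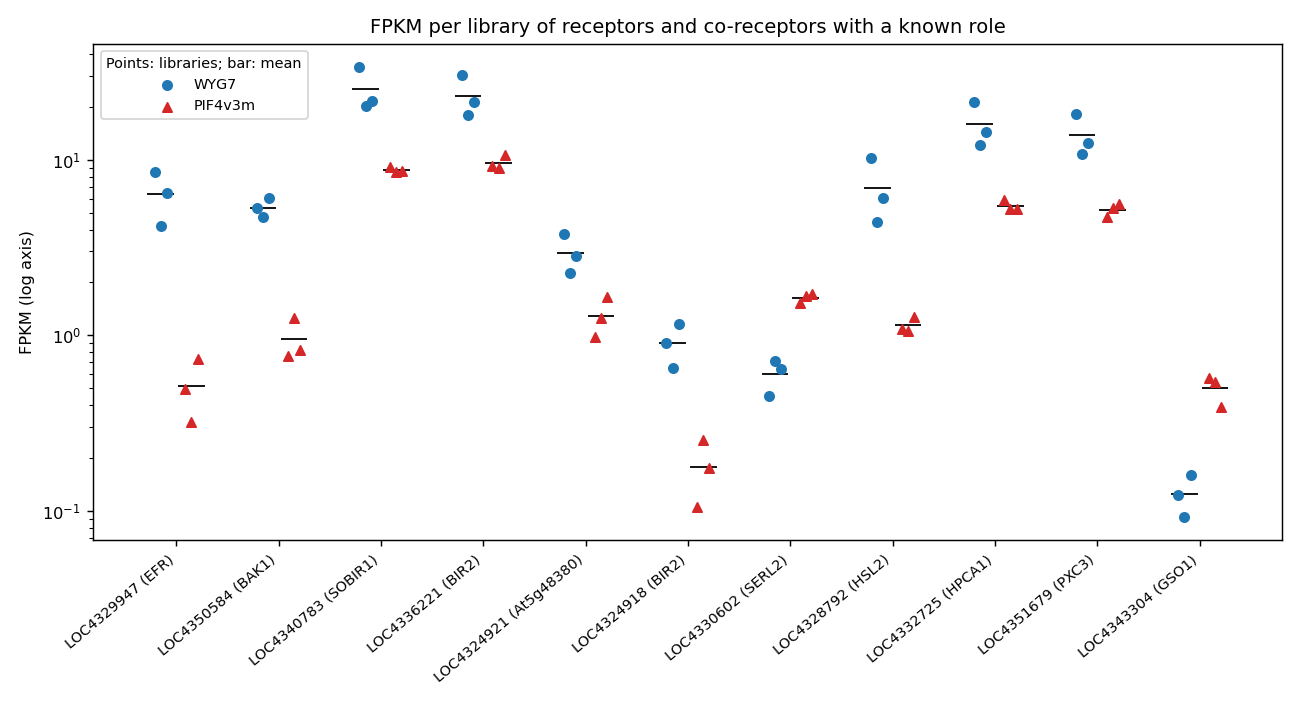
FPKM (log axis) in each of the 3 WYG7 (circles) and 3 PIF4v3m (triangles) libraries for the EFR-named gene, the 6 co-receptors and regulators, and 4 receptors with a known signal or tissue role, with bars for the means. The lines do not overlap in any gene shown, and only the SERL2-named and GSO1-named genes are higher in PIF4v3m. BAM1 is left out because a WYG7 library is listed at 0.

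Among 5 receptors whose Arabidopsis relatives have a known signal or tissue role, 3 fell and 2 rose. HPCA1 is a sensor of extracellular hydrogen peroxide in Arabidopsis. The HPCA1-named LOC4332725 had 21.2, 12.2 and 14.4 FPKM in WYG7 and 5.86, 5.25 and 5.21 FPKM in PIF4v3m. The lowest WYG7 library was above all PIF4v3m libraries, which differed little from each other (log2 fold change −1.36, standard error 0.19, adjusted p = 0.000155).

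HSL2 binds IDA-type peptides that direct cell separation in Arabidopsis. The HSL2-named LOC4328792 had 10.3, 4.39 and 6.05 FPKM in WYG7 and 1.08, 1.06 and 1.28 FPKM in PIF4v3m. Its first WYG7 library was far above the other WYG7 libraries, all of which exceeded the edited line (log2 fold change −1.82, standard error 0.25, adjusted p = 0.000156). PXC3 was named for its link to the vascular receptor PXY. The PXC3-named LOC4351679 fell from 13.8 ± 3.83 to 5.20 ± 0.462 FPKM (log2 fold change −1.23, standard error 0.18, adjusted p = 0.000226).

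The 2 receptors of this group that rose were at low levels. BAM1 is an Arabidopsis receptor of CLE peptides, and the BAM1-named LOC4332141 was listed at 0, 0.0107 and 0.0130 FPKM in WYG7 and at 0.341, 0.222 and 0.218 FPKM in PIF4v3m. It was nearly absent from the WYG7 libraries and under 1 FPKM in those of PIF4v3m. GSO1, known in Arabidopsis as a receptor of peptides that seal the root endodermis, gave its name to LOC4343304, which rose from 0.125 ± 0.0344 to 0.502 ± 0.0954 FPKM.

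All 5 genes named after the neighbouring Arabidopsis loci At1g56130 and At1g56140 rose in PIF4v3m. LOC9271323 had the largest increase of the family and was its only gene to rise past 2-fold with 1 FPKM added and no further scaling. It had 6.76, 7.88 and 8.50 FPKM in WYG7 and 22.5, 20.4 and 25.8 FPKM in PIF4v3m. The lines were far apart and neither had a library out of place (log2 fold change 1.45, standard error 0.12, adjusted p = 1.37e-05).

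The other 4 genes of the group were lower in level. LOC9268723 rose from 1.69 ± 0.0693 to 3.35 ± 0.329 FPKM and LOC4338239 from 0.684 ± 0.264 to 1.84 ± 0.362 FPKM. LOC112936064 rose from 0.437 ± 0.257 to 1.42 ± 0.265 FPKM and LOC4344914 from 0.0990 ± 0.0683 to 0.654 ± 0.278 FPKM. Their log2 fold changes were 0.58 to 0.76, and no WYG7 library reached the lowest PIF4v3m library of the same gene.

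**Figure D3:**
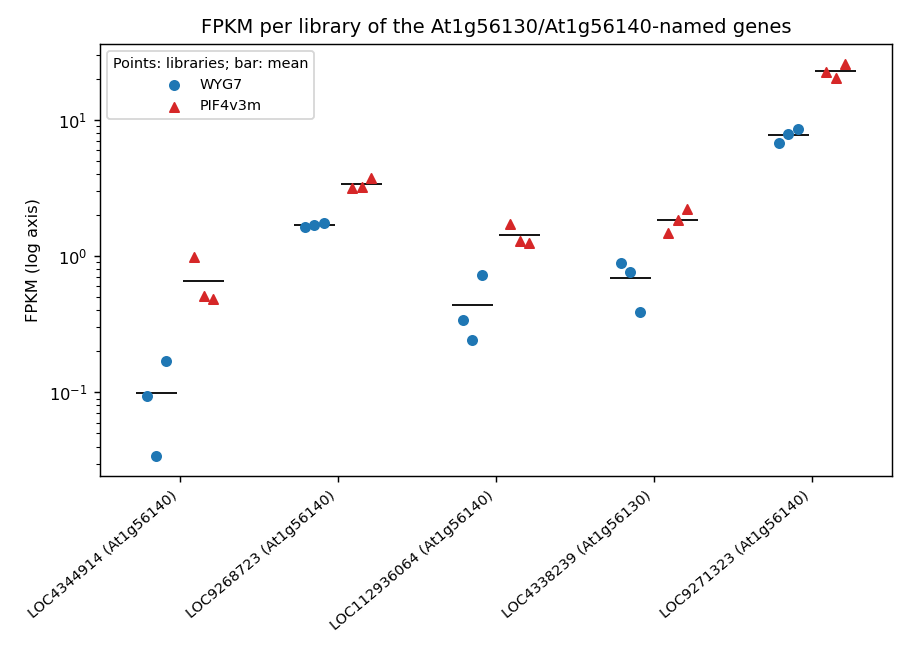
FPKM (log axis) in each of the 3 WYG7 (circles) and 3 PIF4v3m (triangles) libraries for the 5 genes named after At1g56130 or At1g56140, with bars for the means. Every PIF4v3m library is above every WYG7 library in each gene, and LOC9271323 is the most abundant, with a mean of 22.9 FPKM in PIF4v3m.

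The 8 remaining genes carry names of other Arabidopsis loci, and 5 of them fell. Oryza_sativa_newGene_2996, named after At1g05700, had 25.6, 14.3 and 20.1 FPKM in WYG7 and 7.32, 6.78 and 5.05 FPKM in PIF4v3m. The lines stayed apart despite the spread in WYG7 (log2 fold change −1.48, standard error 0.21, adjusted p = 0.000191). LOC4346800, named after At1g07650, fell from 6.13 ± 0.830 to 1.62 ± 0.298 FPKM (log2 fold change −1.45, standard error 0.15, adjusted p = 3.16e-05). The At1g14390-named LOC4341407 fell from 3.54 ± 1.19 to 1.08 ± 0.171 FPKM, and LOC4325931 and LOC4340343 fell with log2 fold changes of −0.78 and −0.30.

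Of the 3 that rose, LOC4336341 (At2g33170-named) went from 1.14 ± 0.0992 to 2.93 ± 0.206 FPKM and LOC4334385 (At3g03770-named) from 0.296 ± 0.0394 to 1.25 ± 0.202 FPKM. The match of the third, LOC4345699, is At4g30520, the Arabidopsis kinase SARK that promotes leaf senescence. It had 0.109, 0.0464 and 0.0434 FPKM in WYG7 and 0.514, 0.715 and 0.562 FPKM in PIF4v3m, so that it was low in every library but clearly separated by line (log2 fold change 0.58, standard error 0.08, adjusted p = 0.000119).

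The spread within WYG7 was not even. WYG7 replicate 1 was the highest WYG7 library in 19 of the 24 lower genes (79.2%), and in 891 of all 1619 lower genes (55.0%). Its ratio to the mean of the other WYG7 libraries had a median of 1.57 in the lower receptor kinases and 1.13 in all lower genes. In the 14 higher genes it was the highest in 3, a count that is not set against all higher genes here. The coefficient of variation in WYG7 had a median of 29.8% in the lower receptor kinases and 18.1% in all lower genes. The part of this library in the results was measured by leaving it out. All 24 genes were then still lower and all 14 still higher, the median log2 fold change was −0.37, and 11 in place of 13 genes fell by more than 2-fold. The BIR2-named LOC4336221 and the At1g14390-named LOC4341407 dropped below that size, with log2 fold changes of −0.96 and −0.89.

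**Figure D4:**
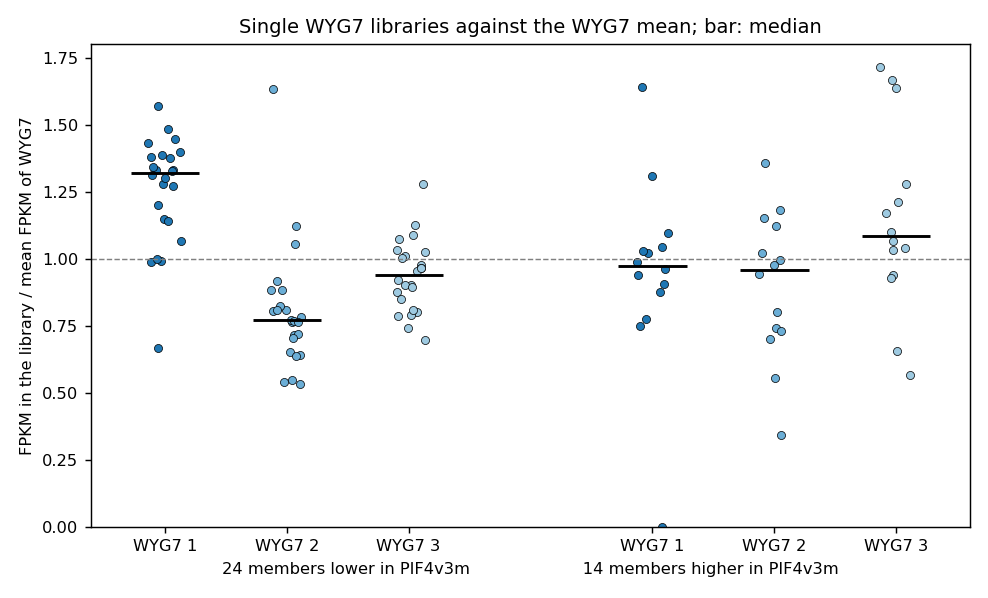
FPKM of each WYG7 library divided by the WYG7 mean of the same gene, for the 24 receptor kinases lower and the 14 higher in PIF4v3m, with points for genes and bars for medians. Among the lower genes, WYG7 replicate 1 is the highest of the 3 libraries in 19, and among the higher genes in 3.

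Of the 38 genes, 36 were found in the RefSeq gene table of rice assembly ASM3414082v1, where they lay on 11 chromosomes, with 6 on chromosome 11. Some were near neighbours. The BIR2-named LOC4324918 and the At5g48380-named LOC4324921 on chromosome 1 had 2 protein-coding genes between them and both fell. On chromosome 6 the Xa21-named LOC4341402 and LOC107276401 and the At1g14390-named LOC4341407 followed each other with 2 and 3 genes between, and all fell. LOC4344914 and LOC9271323 on chromosome 8, both At1g56140-named, had 0 genes between them and both rose. The neighbours LOC4328724 and LOC107276445 on chromosome 2, with 1 gene between them, moved in opposite directions. Sequence identity between members was not analysed here, and close copies can share reads, so values of neighbours with the same name are uncertain to that extent.

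The KEGG pathway of plant and pathogen interaction was listed for 14 of the receptor kinases, of which 11 fell and 3 rose. Outside the family it was listed for 120 genes, of which 80 fell and 40 rose. The KEGG pathway of MAP kinase signalling was listed for 7 of the family, of which 6 fell and 1 rose. Genes outside the family with this pathway were not counted, so the split cannot be read as a trait of the family. Of all listed genes, 54.1% were lower.

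Other genes of receptor signalling were counted by lists of names, and every gene of these lists passed the test. Of 8 genes named as receptor-like proteins, 6 fell and 2 rose, and whether they pair with SOBIR1 was not tested. The receptor-like protein 3-named LOC4328351 had 3.25, 2.69 and 2.88 FPKM in WYG7 and 0.355, 0.401 and 0.442 FPKM in PIF4v3m, with tight libraries in both lines (log2 fold change −1.49, standard error 0.11, adjusted p = 7.1e-06). The largest rise of the list was that of Oryza_sativa_newGene_5108, from 3.49 ± 0.148 to 10.1 ± 0.810 FPKM. Another 6 LRR receptor kinases with names outside the rule were split into 3 that fell, among them the MIK1-named LOC4326546 (log2 fold change −2.11, standard error 0.22), and 3 that rose, among them LOC4341741, named after STRUBBELIG-RECEPTOR FAMILY 3 (log2 fold change 1.58, standard error 0.14).

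Of 6 listed genes for peptide ligands, 5 fell and 1 rose. All 3 phytosulfokine genes fell, which encode precursors of a sulfated growth peptide that is read by an LRR receptor kinase. LOC4332157 had 137, 136 and 164 FPKM in WYG7 and 15.9, 20.4 and 17.7 FPKM in PIF4v3m, and the lines were far apart (log2 fold change −2.95, standard error 0.12, adjusted p = 7.4e-07). The 2 genes named after RALF23, an alkalinization peptide, went in opposite directions. LOC4350457 fell from 1.43 ± 0.221 to 0.0587 ± 0.0513 FPKM and LOC4330272 rose from 3.00 ± 0.659 to 8.40 ± 1.49 FPKM.

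Below the receptors, whether one list differed from another in direction was not tested. All 4 respiratory burst oxidases fell. RBOHB-named LOC4326027 had 61.5, 66.3 and 63.2 FPKM in WYG7 and 17.3, 17.2 and 17.8 FPKM in PIF4v3m, with little spread in either line (log2 fold change −1.81, standard error 0.08, adjusted p = 9.25e-07). RBOHE-named LOC4345742 had 26.9, 9.42 and 13.7 FPKM in WYG7 and 1.55, 1.30 and 1.22 FPKM in PIF4v3m, with WYG7 replicate 1 the highest. Of 13 receptor-like cytoplasmic kinases 6 fell and 7 rose, and even genes of the same name were split. RIPK-named LOC4347179 fell from 2.97 ± 0.970 to 0.311 ± 0.0762 FPKM, while RIPK-named LOC9268867 rose from 4.26 ± 0.0389 to 12.3 ± 2.74 FPKM. In the MAP kinase cascade 3 genes fell and 3 rose.

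The brassinosteroid pathway, which begins at another LRR receptor kinase, BRI1, had 8 listed genes, of which 2 fell and 6 rose. CYP85A1-named LOC4333399, an enzyme of brassinosteroid synthesis, rose from 2.71 ± 0.271 to 9.01 ± 2.13 FPKM, and both CYP90D2-named genes rose as well. Of the genes named after CYP734A enzymes, which inactivate the hormone, LOC4341450 fell from 2.43 ± 1.23 to 0.0653 ± 0.0515 FPKM and Oryza_sativa_newGene_1037 rose from 3.90 ± 0.496 to 17.7 ± 0.810 FPKM. BKI1, an inhibitor of BRI1, gave its name to LOC4347277, which fell from 3.73 ± 0.479 to 1.69 ± 0.242 FPKM. LOC4334738, named after Shaggy-related protein kinase delta, rose from 2.66 ± 0.333 to 6.34 ± 0.283 FPKM. The BSK5-named LOC4334630 rose from 0.193 ± 0.0941 to 0.557 ± 0.161 FPKM, and it is also counted among the receptor-like cytoplasmic kinases above.

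**Figure D5:**
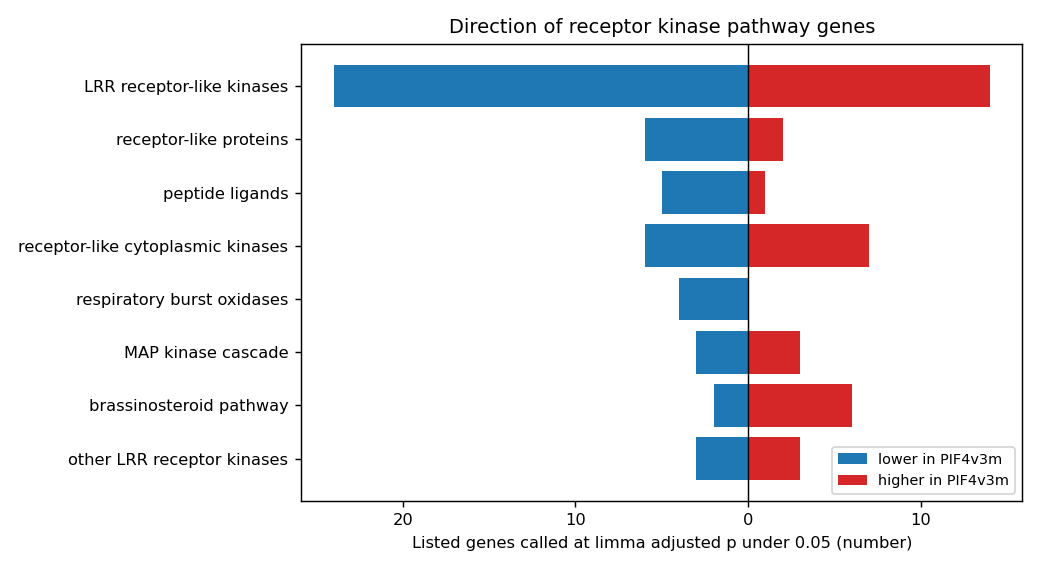
Number of listed genes lower (left of 0) and higher (right of 0) in PIF4v3m at a limma adjusted p under 0.05 for the 38 LRR receptor-like kinases and 7 lists of receptor signalling. The receptor kinases are split 24 to 14, all 4 respiratory burst oxidases are lower, and 6 of 8 brassinosteroid genes are higher, where 54.1% of all listed genes are lower. The BSK5-named LOC4334630 is counted both among the receptor-like cytoplasmic kinases and in the brassinosteroid pathway.

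Markers of leaf and of other cell types were read beside these values. Leaf genes (rubisco small chain, chlorophyll binding and photosystem names) were present, with 5 of 10 higher, and their sums were 13854 to 14638 FPKM in WYG7 and 6863 to 9150 FPKM in PIF4v3m. Of 6 names searched as vascular markers, all SWEET sugar transporters, 5 rose, with sums of 58.4 to 77.9 FPKM against 190 to 211 FPKM. The largest rise was that of the SWEET2b-named LOC4326923, from 3.72 ± 1.03 to 46.3 ± 2.10 FPKM, while the SWEET5-named LOC4339772 fell. Whether these genes mark vascular cells was not tested, so the sums are not a measure of vascular tissue. Of 6 names searched as root markers, all CASP-like, 5 rose, with sums of 18.5 to 25.2 FPKM against 31.2 to 35.7 FPKM. The single cuticle gene fell (5.65 to 11.3 FPKM against 0.493 to 2.94 FPKM), and 0 guard cell markers were listed. The part of cell type shares in the receptor kinase values was not tested.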

How the data were processed

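The authors deposited FPKM per gene and library from RNA-seq of leaves, with a log2 fold change, an FDR and a direction of their own, which were not used. For alignment and quantification the study's methods give STAR and Cufflinks, with DESeq2 for calling, while the submitters' processing notes list HISAT2 2.0, StringTie 1.3.0, Bowtie 0.12.2 and a mouse build, mm8, a conflict that the sources used here do not resolve. Depth was not recovered from the FPKM: of 26 genes with every value under 0.5 FPKM, 0 had whole multiples of the lowest within 0.02. All 6 value columns were used.

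Values were compared as log2(FPKM + 1) for genes with a mean above 0.01 FPKM, with a two-sided limma test without covariates and with a trend of variance on mean (limma 3.58.1, R 4.3.3), called at an adjusted p under 0.05. Data for this comparison were also simulated with all 2995 genes, and changes were given only to genes expressed over 1 FPKM in WYG7. Of the genes changed on the log2(FPKM + 1) scale, limma called 86% at 2-fold and 99% at 4-fold. It called 11 of 2795 unchanged genes. The 86% and 99% do not cover the 19 receptor kinases with a WYG7 mean under 1 FPKM, for which the rate was not tested.

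The members and lists were chosen with earlier results of these data known, and short list names were mended after their matches had been seen. Named members were the 8 largest changes each way with at least 1 FPKM in a line, the 5 highest means, receptors with a name of their own, LRK2 and neighbours within 10 genes. Other members and pathway genes named were chosen after their values were seen. Alternatives were other pseudocounts, filters, scalings and limma settings, a stricter threshold for the adjusted p, and each library left out. OsPIL13 was not analysed here.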

Additional observations from a re-analysis of the deposited data

How the results depend on the processing

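Leaving out the filter changed nothing, as every gene passed it. The other 439 values of the 30 receptor kinases named by rule included a threshold of 0.01 for the adjusted p. Of these values, 437 kept their direction and their side of the threshold. The other 2, both under quantile normalization, were LOC107276401 (log2 fold change −0.14, adjusted p = 0.116) and LOC4328724 (−0.20, adjusted p = 0.117). Much of this agreement was fixed in advance, as the authors had already called every listed gene. Members outside the 30 with a limma adjusted p above 0.01 were LOC4340343 (0.0124), LOC9272400 (0.0148) and LOC4329980 (0.0109). Quantile normalization raised the median log2 fold change over all listed genes by 0.23 and called 19 members lower. It left 4 higher by more than 2-fold and gave a family median of −0.23, against −0.33 over all listed genes. The family median was −0.40 with the same sum per library (all genes −0.50) and −0.41 with library weights (all genes −0.55). With a pseudocount of 0.1, 13 members were higher and 23 lower by more than 2-fold and the median was −1.23 (all genes −1.08). With 0.01 these were 13, 24 and −1.31 (all genes −1.13). Counts past 2-fold over all listed genes are not given for these settings. With a mean of at least 1 FPKM, 19 members were left to test, of which 5 were higher and 14 lower, with a median of −1.23 (all genes −0.78). The family median was thus above that of all listed genes under these scalings and below it with smaller pseudocounts or the stricter filter. Leaving out each library in turn gave 14 to 14 higher, 24 to 24 lower, 1 to 1 higher and 11 to 13 lower by more than 2-fold, and a median of −0.54 to −0.37. With the replicate number as a block, 14 members were higher and 24 lower, 1 and 13 of them by more than 2-fold, and the median was −0.45. Deviations of libraries that share a number correlated at −0.10 to 0.0030, so the numbers were not taken to pair them.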
